A study of Mus musculus with 4 samples.

Results

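Genes of epithelial cell-to-cell junctions were followed in AML12 cells, an immortalised mouse hepatocyte line, by polyA RNA sequencing. The genes were chosen by symbol. They are claudins, occludin, the zonula occludens and cingulin scaffolds, the junctional adhesion gene F11r, Par and Crumbs polarity genes, cadherins, protocadherins, connexins, and the desmosomal cadherins and plaque genes. Of 13422 genes in the deposited table, 65 carried such a symbol: 17 tight junction genes, 7 polarity genes, 7 cadherins grouped here with adherens junctions, 16 protocadherins, 9 desmosomal genes and 9 connexins. Of the 65, 39 averaged 1 CPM or more (CPM is the read count of a gene relative to its scaled library size) and entered the test, and 26 lay under that filter. The Chrna4 cells, labelled Chrna4 over-expression, were transfected with the plasmid PAV-TBG-P2A-GFP-Chrna4 (libraries Chrna4 1 and Chrna4 2), and the control cells with pCMV6-AC-GFP (libraries Control 1 and Control 3). All 4 libraries came from the same line, made from hepatocytes of CD-1 strain mice that carry a transforming growth factor alpha transgene, at passages 3 to 5, in medium with insulin, transferrin, selenium, 40 ng/ml dexamethasone and 10% serum. TBG and CMV in the plasmid names stand for a hepatocyte promoter and a viral promoter, so the plasmids differed in more than the insert. Untransfected cells were not analysed here, and the time from transfection to harvest and the independence of the replicates are not given in the sources used here. P-values set the difference between groups against the spread between replicate libraries. That spread may therefore be technical, and the p-values may not extend beyond these 4 libraries.

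Junctions hold epithelial cells together in layers. Tight junctions, nearest the apical surface, seal the space between cells with claudin strands anchored to zonula occludens scaffolds, and in hepatocytes they line the bile canaliculus. Adherens junctions join cells through cadherins bound to catenins and actin, desmosomes join them through desmosomal cadherins bound to plakoglobin, plakophilins, desmoplakin and keratin filaments, and gap junctions are connexin channels that pass small molecules from cell to cell.

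Chrna4, which encodes a nicotinic acetylcholine receptor subunit and was carried by the plasmid, had 87.1 and 72.5 CPM in the Chrna4 libraries, against 0.0308 and 0.0927 CPM in the controls. The libraries held 31301396 to 32228360 reads on listed genes. The hepatocyte label was checked against marker genes. Of 8 hepatocyte markers 6 were listed, 4 were tested and 3 fell, with Apoa1 and Serpina1a at no more than 0.896 CPM in any library. Alb, the albumin gene, had 7.93 and 8.51 CPM in the Chrna4 libraries, against 17.8 and 19.0 CPM in the controls. The summed level of the hepatocyte markers was 259 CPM in each Chrna4 library and 317 to 324 CPM in the controls. Most of that sum was Hnf4a, which was not called, at 217 and 222 CPM in the Chrna4 libraries, against 231 and 248 CPM in the controls. Of 5 biliary and progenitor markers 4 were tested and 3 fell. The 4 summed to 799.7 to 817 CPM in the Chrna4 libraries and 1121 to 1199 CPM in the controls. Sox9 went the other way and was not called, at 160 and 147 CPM in the Chrna4 libraries, against 137 and 140 CPM in the controls. The simple epithelial markers Krt8, Krt18 and Cdh1 summed to 3645 to 3746 CPM in Chrna4 cells and 3601 to 3645 CPM in control cells, with none of the 3 called. Of the other cell types, 1 of 5 endothelial, 1 of 6 fibroblast and 2 of 5 leukocyte markers were listed, at sums of up to 0.358, 0.246 and 5.27 CPM, and the leukocyte sum was nearly all Cd68. The part of these marker shifts in the junction results was not tested.

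Between Chrna4 and control cells 8 junction genes changed. Pcdh7, Pcdh17, Cdh17, F11r and the gene deposited as Cldn25 rose, and Jup, Cldn2 and Gjb1 fell. The tight, desmosomal and gap junction genes, the cadherins and the protocadherins each had at least 1 changed member, and the polarity genes had 0 of 7. The 8 calls are 20.5% of the 39 tested members, against a background of 15.9% of all 11298 tested genes, 1046 higher and 752 lower in Chrna4 cells (812 higher and 1179 lower with library totals as scaling). The 5 higher members stand against a background of 9.26% higher, and the 3 lower members against 6.66% lower. The Chrna4 and control libraries did not overlap in 19 of the 39 members, 12 higher and 7 lower, against a background of 57.5% of all tested genes, 28.7% higher and 28.8% lower. Shares this near the background or under it are not a result about junction genes as a group. The median log2 change of the members was 0.00 and that of all tested genes was also 0.00, while the median absolute log2 change was 0.13 for members and 0.12 for all tested genes. Changes were small, with ratios of means from 0.564 for Gjb1 to 1.65 for Pcdh7. Called here means an adjusted p under 0.05 in a limma fit over all tested genes with Benjamini-Hochberg adjustment, on log2(CPM + 1), a scale that understates the change of low genes. In bulk RNA fewer cells of a kind and less RNA per cell cannot be told apart.

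**Figure D1:**
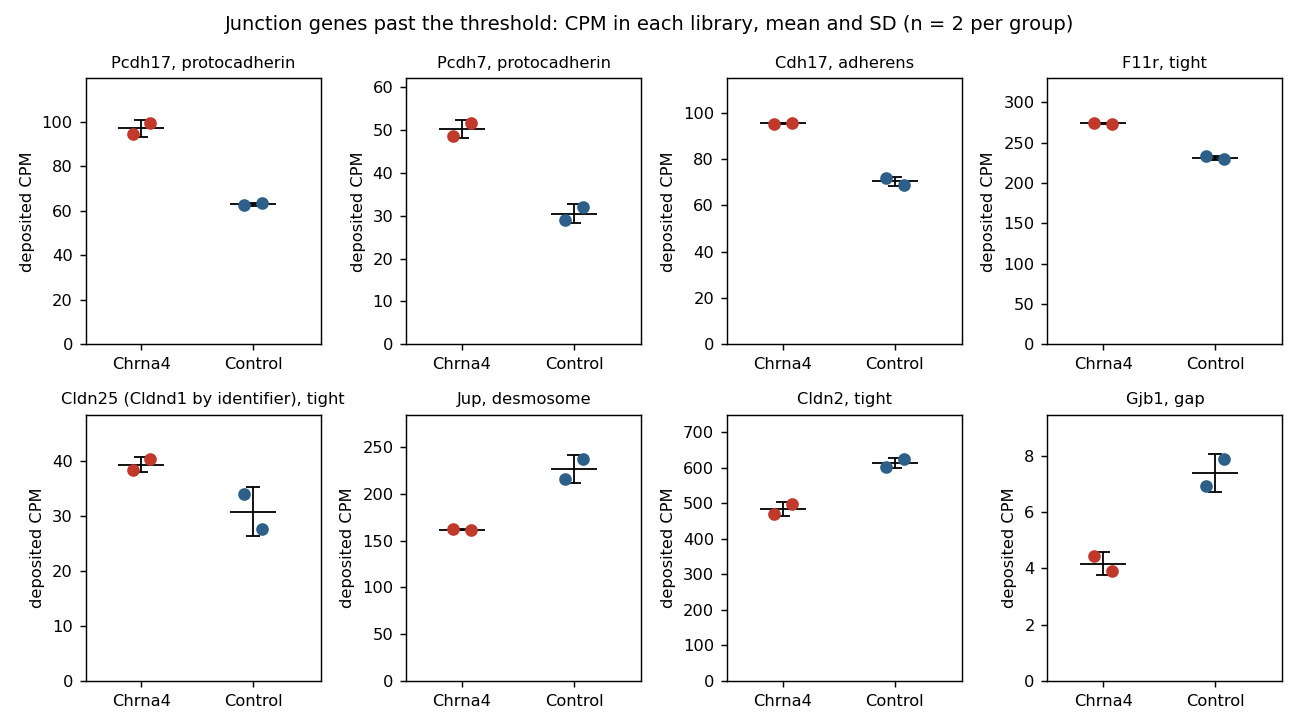
Deposited CPM (vertical axes, from 0) of the 8 changed junction genes in Chrna4 and Control cells. Points are single libraries, bars the mean and SD (n = 2 per group), and the groups do not overlap in any panel, with Cldn25 coming closest.

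The regions around annotated start sites of 6 changed genes are given below, without a measure of which starts these cells use. They are shown because both directions of change are represented, and Gjb1 has 4 annotated starts, of which the one with a searched motif is given. Each runs 5′ to 3′ over 300 bases, from 250 before to 50 after the start, from RefSeq on GRCm38.p6. Capitals mark matches to CACCTG or its reverse complement CAGGTG, an E-box that Zeb and Snail repressors bind, and to TGANTCA, the AP-1 motif.
F11r (chr1:171437311-171437610, plus strand): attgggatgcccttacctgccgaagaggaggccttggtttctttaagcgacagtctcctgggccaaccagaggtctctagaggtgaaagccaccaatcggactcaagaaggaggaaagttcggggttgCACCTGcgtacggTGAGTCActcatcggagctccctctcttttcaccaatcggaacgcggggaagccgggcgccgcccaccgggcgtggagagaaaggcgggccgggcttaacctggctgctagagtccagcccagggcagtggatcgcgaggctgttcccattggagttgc
Pcdh7 (chr5:57717831-57718130, plus strand): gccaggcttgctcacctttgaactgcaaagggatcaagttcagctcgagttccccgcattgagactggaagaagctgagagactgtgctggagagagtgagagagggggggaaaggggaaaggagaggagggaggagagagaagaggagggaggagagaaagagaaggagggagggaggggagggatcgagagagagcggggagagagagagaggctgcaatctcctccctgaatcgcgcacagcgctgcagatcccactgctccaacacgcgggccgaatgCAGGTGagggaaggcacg
Pcdh17 (chr14:84443313-84443612, plus strand): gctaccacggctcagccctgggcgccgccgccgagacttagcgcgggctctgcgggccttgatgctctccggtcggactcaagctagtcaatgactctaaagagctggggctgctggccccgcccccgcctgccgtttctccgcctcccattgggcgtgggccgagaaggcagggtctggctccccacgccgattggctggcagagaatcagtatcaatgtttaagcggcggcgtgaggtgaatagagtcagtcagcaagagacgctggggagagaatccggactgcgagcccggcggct
Cldn2 (chrX:139800558-139800857, plus strand): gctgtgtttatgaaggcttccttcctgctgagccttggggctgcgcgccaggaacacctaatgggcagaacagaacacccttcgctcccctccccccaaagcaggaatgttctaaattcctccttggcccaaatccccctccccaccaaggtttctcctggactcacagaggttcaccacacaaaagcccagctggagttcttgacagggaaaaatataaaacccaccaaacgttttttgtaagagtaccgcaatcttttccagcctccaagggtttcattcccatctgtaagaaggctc
Jup (chr11:100397741-100398040, minus strand): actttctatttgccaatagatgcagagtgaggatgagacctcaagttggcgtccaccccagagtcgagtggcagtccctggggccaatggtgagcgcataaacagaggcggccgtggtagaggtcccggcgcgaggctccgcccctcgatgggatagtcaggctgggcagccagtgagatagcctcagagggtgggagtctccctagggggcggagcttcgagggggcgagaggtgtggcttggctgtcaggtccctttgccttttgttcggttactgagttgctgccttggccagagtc
Gjb1 (chrX:101383482-101383781, plus strand): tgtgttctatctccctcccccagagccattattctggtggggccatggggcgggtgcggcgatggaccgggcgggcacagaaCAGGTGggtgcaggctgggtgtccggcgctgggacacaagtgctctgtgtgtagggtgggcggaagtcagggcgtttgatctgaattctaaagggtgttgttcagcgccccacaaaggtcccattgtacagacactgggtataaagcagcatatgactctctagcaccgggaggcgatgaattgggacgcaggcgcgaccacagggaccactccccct

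RefSeq promoter windows were found for 37 of the 65 genes, 50 windows in all, some of which overlap. The E-box on either strand was in 16 of the 50 windows (32%), against 20.2% of all 32851 windows of the same length. Among the 7 changed genes with a window it was in F11r at -122 to -117 from the start, in Pcdh7 at 33 to 38 and in Gjb1 at -168 to -163. The AP-1 motif was in 3 of the 50 windows (6%), against 7.81% of all windows, and in 1 changed gene, F11r, at -109 to -103, a few bases from its E-box. The core of the interferon-stimulated response element, read on both strands, was in 1 member window (2%) and in none of the changed genes, against 3.44% of all windows. The median GC content of the member windows was 60.7%, against 52.7% over all windows, with a median of 15.5 CpG dinucleotides against 7. A match is a description of the letters and not a binding site.

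Among the strand-forming tight junction genes, Cldn2, the pore-forming claudin that lets cations and water pass between cells (ENSMUSG00000047230; GRCm38 chromosome X, 139800828 to 139811386, plus strand), had 469 and 498 CPM in the Chrna4 libraries, against 603 and 623 CPM in the controls. Both Chrna4 libraries were lower than both controls. Cldn2 fell to 484 ± 19.9 CPM in Chrna4 cells, against 613 ± 14.3 CPM in control cells (SD, n = 2 each), a ratio of 0.789 (log2 change -0.34, SE 0.06, adjusted p = 0.00143 by limma). Its adjusted p by limma was 0.0851 without Chrna4 1, with a log2 change of -0.30. Cldn2 was also the most abundant junction transcript per exon length, at 145 CPM per kb in Chrna4 cells and 184 in control cells. It made up 77.7% and 77.9% of the summed claudin level per kb in the Chrna4 libraries, against 83.4% and 84.3% in the controls. That sum includes the gene deposited as Cldn25, whose identifier names Cldnd1. Its share was 8.24% and 8.19% in the Chrna4 libraries, against 6.09% and 4.85% in the controls.

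None of the other claudins above the filter passed as lower. Cldn12 had 102 and 108 CPM in the Chrna4 libraries, against 90.2 and 93.3 CPM in the controls, so both Chrna4 libraries were higher, but it did not pass the test (log2 difference 0.19, 95% interval 0.05 to 0.33, adjusted p = 0.0656 by limma). The gene deposited as Cldn25 carries the identifier ENSMUSG00000022744, which the GENCODE M21 annotation names Cldnd1, a claudin domain gene, on GRCm38 chromosome 16, 58727910 to 58734251. It had 38.4 and 40.3 CPM in the Chrna4 libraries, against 34.0 and 27.6 CPM in the controls, and rose to 39.3 ± 1.37 CPM in Chrna4 cells, against 30.8 ± 4.49 CPM in control cells (SD, n = 2 each), with a log2 change of 0.35 (SE 0.10, adjusted p = 0.0336 by limma). The gap to Control 1 was small, and the adjusted p by limma was 0.0808 without Control 3, 0.0577 without Chrna4 1, 0.157 without Chrna4 2 and 0.0610 when scaled by library totals. Cldn18, best known from lung and stomach, received 46 and 33 reads in the Chrna4 libraries, against 35 and 55 reads in the controls, and the groups overlapped.

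Of the barrier-forming tight junction genes, Ocln and Cldn1 were near the limit of detection. Ocln, which encodes the tight junction membrane protein occludin, received 0 and 5 reads in the Chrna4 libraries, against 9 and 9 reads in the controls. For Ocln the ratio of summed reads, Chrna4 over control, was 0.289 (exact 95% interval from 0.0838 up to 0.807), and the interval covers counting error only. Cldn1, a sealing claudin, received 8 and 1 reads in the Chrna4 libraries, against 2 and 1 reads in the controls, and the groups overlapped. Neither gene exceeded 0.278 CPM in a library, and neither was tested. Cldn6 received 22 and 11 reads in the Chrna4 libraries, against 40 and 30 reads in the controls. Its neighbour on chromosome 17, Cldn9, received 1 and 0 reads in the Chrna4 libraries, against 12 and 2 reads in the controls. Both claudins were lower in both Chrna4 libraries than in both controls, on few reads. Cldn15, Cldn20 and Cldn22 had no more than 13 reads in any library.

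F11r, which encodes the junctional adhesion molecule JAM-A (ENSMUSG00000038235; GRCm38 chromosome 1, 171437535 to 171464603, plus strand), had 275 and 273 CPM in the Chrna4 libraries, against 233 and 229 CPM in the controls. The replicates lay close together and the groups apart. F11r rose to 274 ± 0.828 CPM in Chrna4 cells, against 231 ± 2.67 CPM in control cells (SD, n = 2 each), a ratio of 1.19 (log2 change 0.24, SE 0.05, adjusted p = 0.00931 by limma). Without Chrna4 1 or Chrna4 2 the log2 change was 0.24 and 0.25 and the adjusted p by limma 0.160 and 0.156.

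The scaffold genes Tjp1, Cgnl1 and Cgn did not pass the test. Tjp1, which encodes the zonula occludens scaffold ZO-1 and had the most reads of all 65 genes, had 681 and 680.1 CPM in the Chrna4 libraries, against 601 and 687 CPM in the controls, and the groups overlapped, with Control 3 highest and Control 1 lowest (log2 difference 0.08, 95% interval -0.06 to 0.23, adjusted p = 0.453 by limma). Cgnl1, the paracingulin gene, had 407 and 403 CPM in the Chrna4 libraries, against 414 and 443 CPM in the controls (log2 difference -0.08, 95% interval -0.20 to 0.04, adjusted p = 0.386 by limma). Cgn, encoding cingulin, had 96.8 and 94.6 CPM in the Chrna4 libraries, against 89.6 and 102 CPM in the controls (log2 difference 0.00, 95% interval -0.16 to 0.16, adjusted p = 0.989 by limma). The intervals of these 3 genes reach at most 0.23 in either direction on the log2 scale. Of the 3, Cgnl1 was lower in both Chrna4 libraries. Among the alternative settings Cgnl1 passed only without Control 1, a fit with a lone control. Tjp3 had 2 to 19 reads in every library and was not tested.

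Among polarity genes, which set up the apical domain that tight junctions border, 0 of 7 passed, against the background of 15.9%. Pard3, the Par scaffold gene, had 90.1 and 87.7 CPM in the Chrna4 libraries, against 78.9 and 84.6 CPM in the controls, with both Chrna4 libraries higher (log2 difference 0.12, 95% interval -0.02 to 0.26, adjusted p = 0.255 by limma). Pard3b, its relative, received 437 and 439 reads in the Chrna4 libraries, against 357 and 436 reads in the controls, with Chrna4 2 and Control 3 nearly level in reads (log2 difference 0.19, 95% interval -0.07 to 0.46, adjusted p = 0.326 by limma). Pard6b, which encodes a partner of atypical protein kinase C, had 23.1 and 20.3 CPM in the Chrna4 libraries, against 22.6 and 20.8 CPM in the controls (log2 difference 0.00, 95% interval -0.22 to 0.22, adjusted p = 0.999 by limma). Crb3, the epithelial Crumbs gene, had 8.32 and 7.44 CPM in the Chrna4 libraries, against 7.45 and 9.27 CPM in the controls, and the groups overlapped. Pard6a, Pard6g and Crb2 ranged from 1.40 to 7.27 CPM with overlapping groups.

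In the cadherins, the E-cadherin gene Cdh1 and the N-cadherin gene Cdh2, both of which hepatocytes normally express, did not pass the test. Cdh1 had 494 and 512 CPM in the Chrna4 libraries, against 457 and 511 CPM in the controls (log2 difference 0.06, 95% interval -0.08 to 0.20, adjusted p = 0.608 by limma). Cdh2 had 189 and 189.8 CPM in the Chrna4 libraries, against 186 and 201 CPM in the controls (log2 difference -0.03, 95% interval -0.16 to 0.10, adjusted p = 0.776 by limma). The groups overlapped in both genes, with Control 3 inside the Chrna4 range for Cdh1 and above it for Cdh2. Per kb of exon, Cdh2 stood at 0.217 and 0.210 of Cdh1 in the Chrna4 libraries, against 0.231 and 0.223 in the controls. Cdh6, the kidney-type cadherin gene, had 228 and 243 CPM in the Chrna4 libraries, against 183 and 236 CPM in the controls, where Control 1 was lowest and Control 3 lay between the Chrna4 libraries (log2 difference 0.18, 95% interval -0.03 to 0.39, adjusted p = 0.250 by limma).

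Cdh17, which encodes the liver-intestine cadherin (ENSMUSG00000028217; GRCm38 chromosome 4, 11758147 to 11817895, plus strand), was the cadherin that changed. It had 95.2 and 95.7 CPM in the Chrna4 libraries, against 71.8 and 68.9 CPM in the controls, with replicates within a few CPM of each other and no overlap. Cdh17 rose to 95.5 ± 0.289 CPM in Chrna4 cells, against 70.3 ± 2.02 CPM in control cells (SD, n = 2 each), a ratio of 1.36 (log2 change 0.44, SE 0.06, adjusted p = 0.000583 by limma). It made up 11.8% and 11.5% of the summed cadherin level per kb in the Chrna4 libraries, against 9.90% and 8.51% in the controls. Cdh13 and Cdh24 ranged from 3.64 to 12.8 CPM with overlapping groups. Cdh16, a kidney cadherin gene under the filter, received 14 and 3 reads in the Chrna4 libraries, against 30 and 21 reads in the controls, and the ratio of summed reads, Chrna4 over control, was 0.347 (exact 95% interval from 0.188 up to 0.610).

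The selection by symbol holds nectins only under their present names, and the table lists these under the older symbols Pvrl1 to Pvrl4. Nectins are immunoglobulin-like adhesion proteins of adherens junctions. They are given beside the members, chosen after their values were seen. Pvrl2, which is Nectin2 (ENSMUSG00000062300; GRCm38 chromosome 7, 19716644 to 19750483, minus strand), had 75.1 and 81.2 CPM in the Chrna4 libraries, against 47.9 and 51.6 CPM in the controls, and rose to 78.1 ± 4.29 CPM in Chrna4 cells, against 49.8 ± 2.62 CPM in control cells (SD, n = 2 each), with a log2 change of 0.64 (SE 0.07, adjusted p = 8.91e-05 by limma). Pvrl3 had 14.7 and 16.1 CPM in the Chrna4 libraries, against 17.1 and 17.2 CPM in the controls (log2 difference -0.15, 95% interval -0.37 to 0.08, adjusted p = 0.380 by limma), and Pvrl1 had 11.5 and 13.1 CPM in the Chrna4 libraries, against 11.7 and 13.6 CPM in the controls with overlapping groups. Pvrl4 had no more than 0.293 CPM in any library.

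Among the tested members the largest log2 increases were in protocadherins, cadherin relatives that mediate weak adhesion and signalling and are not parts of a classical junction. Pcdh7 (ENSMUSG00000029108; GRCm38 chromosome 5, 57717967 to 58133230, plus strand) had 48.7 and 51.7 CPM in the Chrna4 libraries, against 28.9 and 32.1 CPM in the controls, and rose to 50.2 ± 2.14 CPM in Chrna4 cells, against 30.5 ± 2.23 CPM in control cells (SD, n = 2 each), a ratio of 1.65 (log2 change 0.70, SE 0.08, adjusted p = 0.000113 by limma). Pcdh17 (ENSMUSG00000035566; GRCm38 chromosome 14, 84443563 to 84539002, plus strand) had 94.4 and 99.6 CPM in the Chrna4 libraries, against 62.5 and 63.3 CPM in the controls, and rose to 97.0 ± 3.64 CPM in Chrna4 cells, against 62.9 ± 0.583 CPM in control cells (SD, n = 2 each), a ratio of 1.54 (log2 change 0.62, SE 0.07, adjusted p = 4.57e-05 by limma). In both genes every Chrna4 library was higher than both controls by more than the spread between replicates, and both passed in all 12 alternative settings. Pcdh1, an epithelial protocadherin gene, had 138 and 133 CPM in the Chrna4 libraries, against 109 and 123 CPM in the controls, also without overlap, and missed the threshold (log2 difference 0.22, 95% interval 0.07 to 0.37, adjusted p = 0.0523 by limma). Its log2 change was 0.30 without Control 3, the higher control. Pcdh1 was not called without Control 1 or without either Chrna4 library.

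Pcdh9 stood under the filter, at 47 and 36 reads in the Chrna4 libraries, against 8 and 25 reads in the controls, and the ratio of summed reads, Chrna4 over control, was 2.62 (exact 95% interval from 1.73 up to 4.04). Among the alternative settings it passed in the fit with no filter on low values. The authors' deposited table called 10 of the 65 genes at an adjusted p under 0.05, against 2261 of all 13422 listed genes. The 10 were 7 higher and 3 lower, and the 2261 were 1240 higher and 1021 lower. The 10 were the 8 genes above and Pcdh1 and Pcdh9, with adjusted p-values of 0.0376 and 0.0336 in the authors' deposited table. Of 10 listed genes of the Pcdhb cluster 9 were under the filter, and Pcdhb17 had 1.92 and 1.11 CPM in the Chrna4 libraries, against 1.42 and 1.73 CPM in the controls. The gene deposited as Pcdhgb6 carries the identifier ENSMUSG00000023036, which GENCODE M21 names Pcdhgc4, and it had 154 and 154 CPM in the Chrna4 libraries, against 142 and 154 CPM in the controls. The genes of that cluster share their last exons, so this level is uncertain as to which of them it belongs to.

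In the desmosome, Jup, which encodes plakoglobin, a plaque protein shared with adherens junctions (ENSMUSG00000001552; GRCm38 chromosome 11, 100368958 to 100397763, minus strand), had 162 and 162 CPM in the Chrna4 libraries, against 216 and 237 CPM in the controls. The Chrna4 libraries were nearly equal and both well under the controls. Jup fell to 162 ± 0.394 CPM in Chrna4 cells, against 226 ± 15.0 CPM in control cells (SD, n = 2 each), a ratio of 0.715 (log2 change -0.48, SE 0.06, adjusted p = 0.000220 by limma), and passed in all 12 alternative settings. Dsp, encoding desmoplakin, which ties the plaque to keratin, had 185 and 195 CPM in the Chrna4 libraries, against 209.6 and 223 CPM in the controls, lower in both Chrna4 libraries but just short of the threshold (log2 difference -0.19, 95% interval -0.32 to -0.06, adjusted p = 0.0549 by limma). With library totals Dsp passed (adjusted p = 0.0183 by limma). It passed in none of the other settings that kept all 4 libraries, at adjusted p-values from 0.0543 (limma, filter at 5 CPM) to 0.0678 (DESeq2). Dropping either control gave a call for Dsp, while dropping either Chrna4 library gave none. Its log2 change lay between -0.23 and -0.14 in those fits. Dsg2, the main desmosomal cadherin of simple epithelia, had 310.3 and 336 CPM in the Chrna4 libraries, against 326 and 342 CPM in the controls, and the groups overlapped (log2 difference -0.05, 95% interval -0.18 to 0.08, adjusted p = 0.654 by limma). The level of Jup per kb was 0.671 and 0.619 of that of Dsg2 in the Chrna4 libraries, against 0.852 and 0.892 in the controls.

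The plakophilins, plaque proteins that bind desmoplakin, did not pass. Pkp4, a plakophilin relative found at both adherens junctions and desmosomes, had 180.1 and 169 CPM in the Chrna4 libraries, against 159 and 159 CPM in the controls, higher without overlap (log2 difference 0.13, 95% interval 0.00 to 0.26, adjusted p = 0.158 by limma). Pkp2 had 33.8 and 29.5 CPM in the Chrna4 libraries, against 31.5 and 33.0 CPM in the controls, and the groups overlapped. Pkp1 and Pkp3, known from stratified epithelia, were low. Pkp3 had 0.943 and 1.42 CPM in the Chrna4 libraries, against 1.88 and 2.16 CPM in the controls, lower without overlap (log2 difference -0.48, 95% interval -0.94 to -0.01, adjusted p = 0.157 by limma). Pkp1 had 4.36 and 7.09 CPM in the Chrna4 libraries, against 7.02 and 7.72 CPM in the controls, where Chrna4 2 lay within the control range. Among the alternative settings Pkp1 passed only without Chrna4 2, a fit with a lone Chrna4 library. Of 7 tested desmosomal genes 6 had a negative log2 change, as had 5736 of all 11298 tested genes, with a median of -0.19 against 0.00 over all tested genes, and 1 passed. Dsc2 and Dsg3 had no more than 10 reads in any library.

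Among the connexins, Gjb1, which encodes the main hepatocyte gap junction protein (ENSMUSG00000047797; GRCm38 chromosome X, 101376378 to 101385629, plus strand), had 4.45 and 3.89 CPM in the Chrna4 libraries, against 6.93 and 7.88 CPM in the controls. These are 137 and 123 reads in the Chrna4 libraries, against 225 and 255 reads in the controls, and the groups did not overlap. Gjb1 fell to 4.17 ± 0.396 CPM in Chrna4 cells, against 7.40 ± 0.672 CPM in control cells (SD, n = 2 each), a ratio of 0.564 (log2 change -0.70, SE 0.15, adjusted p = 0.00707 by limma), and passed in all 12 alternative settings, with a highest adjusted p of 0.0464. Gjb2, the second hepatocyte connexin gene, was near the limit of detection, at 8 and 7 reads in the Chrna4 libraries, against 2 and 1 reads in the controls. For Gjb2 the ratio of summed reads, Chrna4 over control, was 5.20 (exact 95% interval from 1.47 up to 28.0), higher in both Chrna4 libraries on few reads, and it was not tested. Gja1, the connexin gene of many non-hepatocyte cells, had 5.62 and 5.32 CPM in the Chrna4 libraries, against 5.79 and 6.27 CPM in the controls (log2 difference -0.12, 95% interval -0.43 to 0.19, adjusted p = 0.629 by limma).

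Gjb5, a connexin gene better known from skin, had 2.73 and 4.24 CPM in the Chrna4 libraries, against 2.06 and 3.15 CPM in the controls, and the groups overlapped (log2 difference 0.31, 95% interval -0.16 to 0.79, adjusted p = 0.380 by limma). Gjb1 made up 4.14% and 3.57% of the summed connexin level per kb in the Chrna4 libraries, against 6.97% and 7.25% in the controls. Gja4, Gja6 and Gjc3 had no more than 22 reads in any library.

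**Figure D2:**
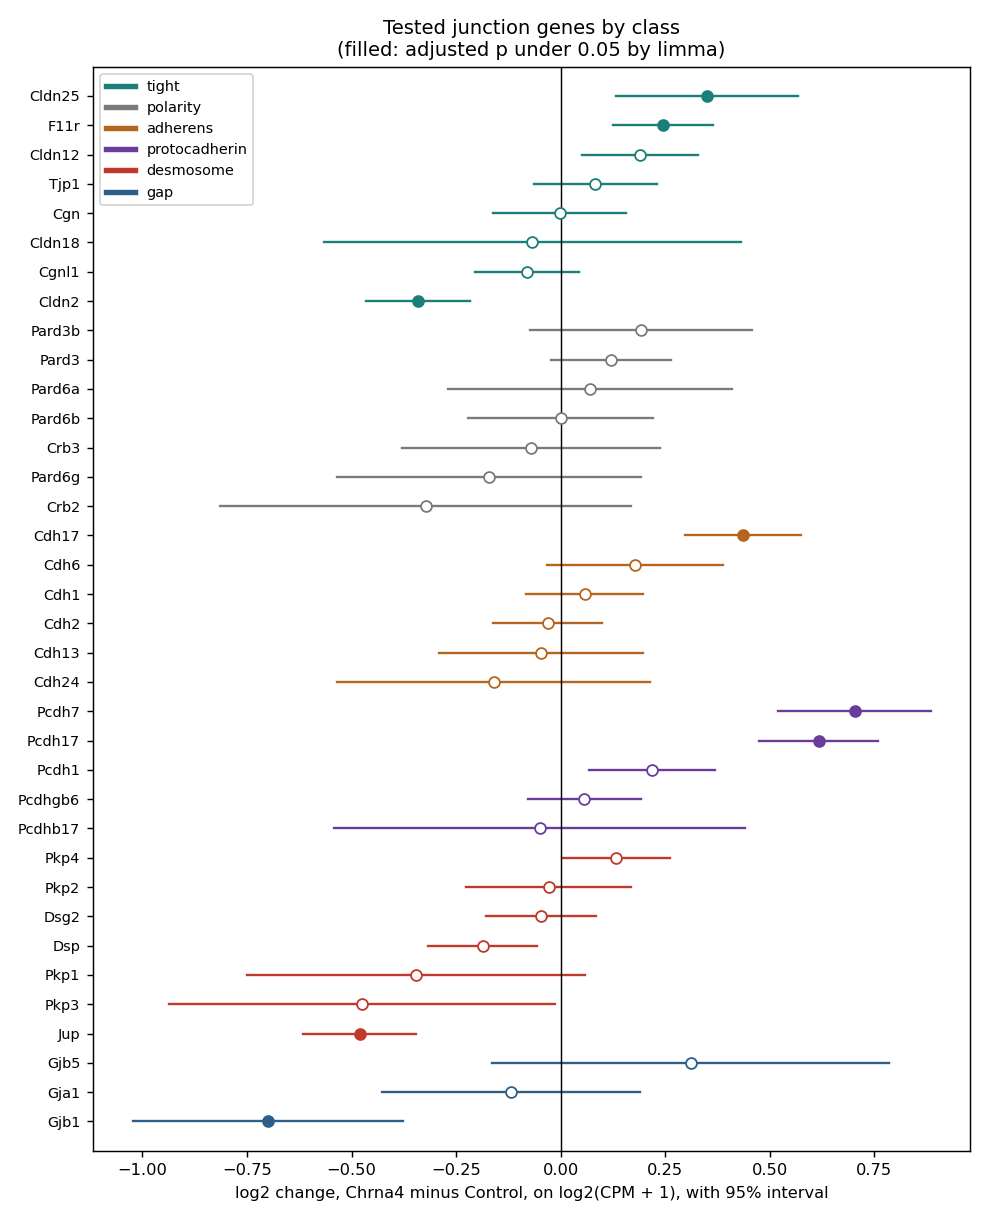
Log2 change, Chrna4 minus Control, on log2(CPM + 1) with its 95% interval (horizontal axis) for 36 tested junction genes by class. Filled points passed the threshold. Gjb1 lies lowest at -0.70 and Pcdh7 highest at 0.70, and most intervals cross 0.

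Ordered by mean level per kb of exon, the described genes ran from Cldn2 through Cdh1, F11r, Tjp1, Cgnl1, Dsg2 and Jup to Pkp4. The values per kb were 99.8 to 112 for Cdh1, 86.1 to 103 for F11r and 76.9 to 88.0 for Tjp1, so these ranges overlapped between neighbours. Within libraries Cdh1 was above F11r in 4 of 4, and F11r was above Tjp1 in 3 of 4, with Control 3 the exception. Cldn2 stood above all of them in every library, from 141 to 187. Jup stood at 25.1 to 25.2 in the Chrna4 libraries, against 33.5 to 36.8 in the controls, so that it lay under Pkp4, at 29.6 to 31.6, in Chrna4 cells and above Pkp4, at 27.8 to 27.9, in control cells. Exon length is the union of all annotated exons, which can exceed the transcript made.

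**Figure D3:**
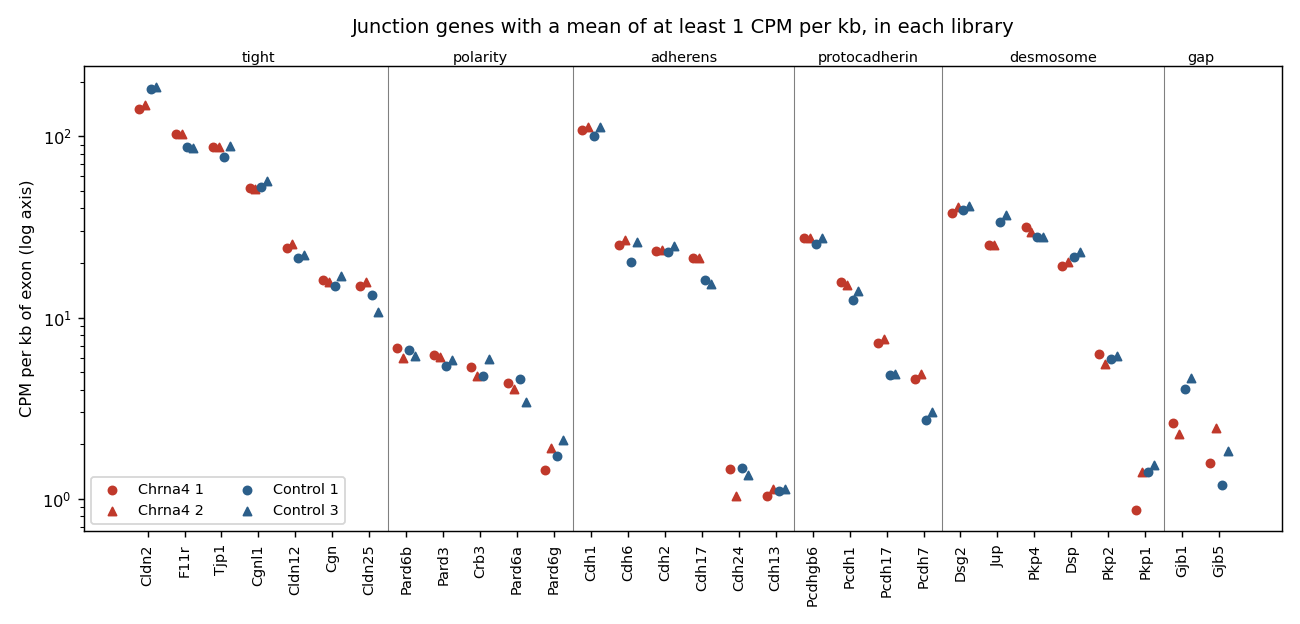
CPM per kb of exon (log axis) in each library for the reported junction genes that averaged 1 CPM per kb or more, grouped by class. Chrna4 libraries are red and controls blue. Cldn2, at 141 to 187, is highest, and Cldn2, Jup and Gjb1, as well as Cgnl1 and Dsp, which did not pass, show both red points under both blue ones.

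**Figure D4:**
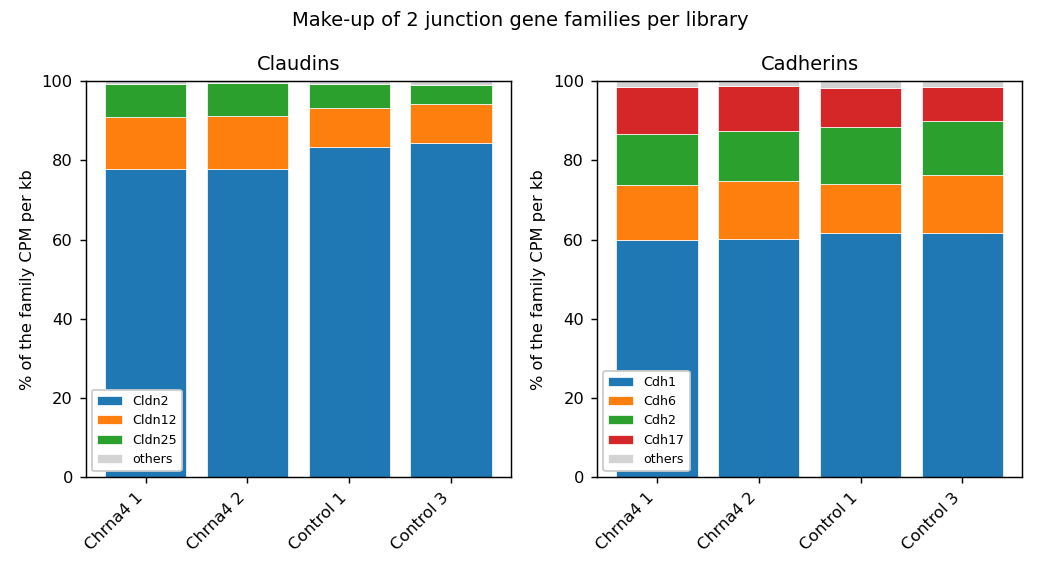
Share (%) of each family's summed CPM per kb held by its leading genes in each library, for claudins and cadherins. Cldn2 holds 77.7% to 84.3% of claudin level and Cdh1 59.8% to 61.8% of cadherin level. The claudin sum includes the gene deposited as Cldn25, which its identifier names Cldnd1.

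The control libraries differed in these genes. Of the 39 tested members 33 were higher in Control 3 than in Control 1, against 5631 of all 11298 tested genes, and on the log2 scale Control 1 minus Control 3 had a median of -0.12 over the members and 0.00 over all genes. The Chrna4 libraries showed no such offset, with a median log2 difference of 0.00 between them. Summed over the 65 genes, the level was 5060 and 5142 CPM in the Chrna4 libraries, against 4871 and 5264 CPM in the controls, so the controls lay on both sides. The number of genes called over the whole table rose without either control and fell without either Chrna4 library. Calls gained or lost with 1 library left out are therefore not a result about junction genes. Those gained without Control 3 included Cdh1, Cdh6, Cldn12, Pard3, Pcdh1, Pkp4 and Tjp1 as higher and Dsp as lower, and Cldn25 was lost. Those gained without Control 1 were Cldn12 as higher and Cgnl1 and Dsp as lower. Pcdh7, Pcdh17, Cdh17, Jup and Gjb1 were called whichever library was left out.

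**Figure D5:**
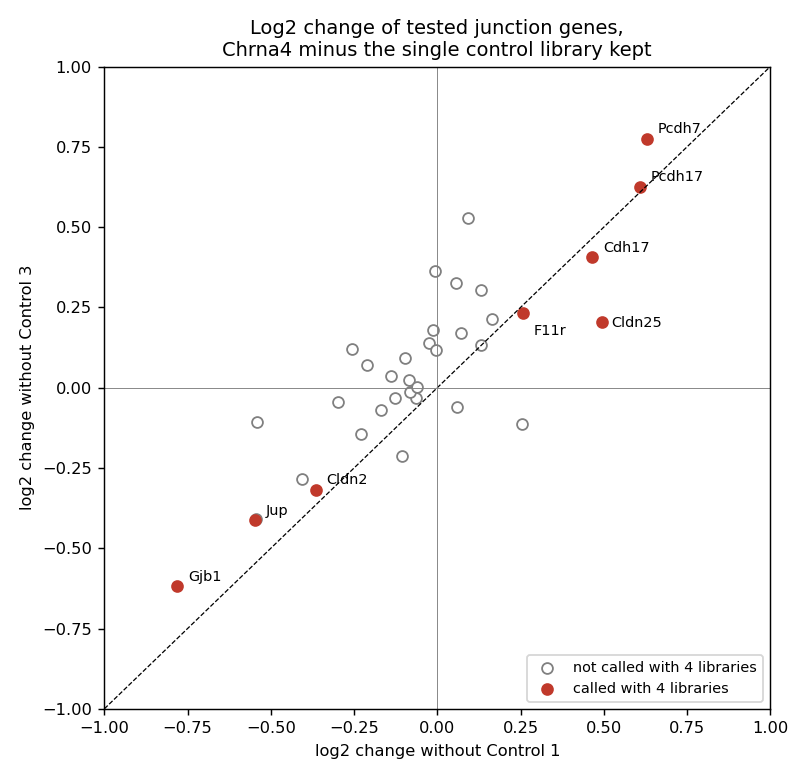
Log2 change of 36 tested junction genes, Chrna4 minus the single control kept, without Control 1 (horizontal axis) and without Control 3 (vertical axis), with a dashed line of equality. The 8 genes called with 4 libraries are red and keep their sign on both axes, and most open points lie above the line, as 33 of 39 members were higher in Control 3 than in Control 1.

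Partners of the junction genes outside the symbols above were read from lists. Of 16 tested tight junction partners 2 rose and 3 fell (median log2 0.04). Jam2, a relative of F11r, fell to 35.1 ± 1.32 CPM in Chrna4 cells, against 57.7 ± 1.62 CPM in control cells (SD, n = 2 each), with an adjusted p of 5.03e-05 by limma, the reverse of the direction in F11r. The scaffold gene Magi1 averaged 73.5 ± 1.41 CPM in Chrna4 cells, against 91.0 ± 9.20 CPM in control cells (SD, n = 2 each), the tricellular junction gene Ildr2 150.3 ± 3.16 CPM in Chrna4 cells, against 179 ± 11.7 CPM in control cells (SD, n = 2 each), and Ybx3, a factor that binds ZO-1, 554 ± 19.2 CPM in Chrna4 cells, against 475 ± 17.7 CPM in control cells (SD, n = 2 each). Magi1 and Ildr2 fell and Ybx3 rose, as did Tjap1 (chosen after its value was seen), calls that were lost without Chrna4 1 (adjusted p = 0.0600, 0.209, 0.358 and 0.170 by limma) and without Chrna4 2 (0.120, 0.121, 0.168 and 0.261). With library totals Ybx3 and Tjap1 were also lost (adjusted p = 0.0633 and 0.107 by limma), as was Tjap1 without Control 1 (adjusted p = 0.0512 by limma). Of 11 tested polarity partners 0 rose and 3 fell, the atypical kinase gene Prkcz and the scaffold genes Llgl2 and Lin7c, and each call was lost without Chrna4 2 (adjusted p = 0.176, 0.111 and 0.222 by limma). The calls of Llgl2 and Lin7c were also lost without Chrna4 1 (adjusted p = 0.0760 and 0.0851 by limma).

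Of 13 tested adherens junction partners 2 rose and 1 fell (median log2 0.02). Plekha7, which links cadherin complexes to microtubules, rose to 91.9 ± 4.91 CPM in Chrna4 cells, against 68.4 ± 2.45 CPM in control cells (SD, n = 2 each), with an adjusted p of 0.00126 by limma, and Vcl, encoding vinculin, rose to 424 ± 13.7 CPM in Chrna4 cells, against 347 ± 23.8 CPM in control cells (SD, n = 2 each), a call lost without Chrna4 2 (adjusted p = 0.157 by limma). Ssx2ip, whose product is a partner of afadin, fell to 26.5 ± 3.70 CPM in Chrna4 cells, against 35.9 ± 0.411 CPM in control cells (SD, n = 2 each), a call lost without Chrna4 1 (adjusted p = 0.161 by limma). The catenin genes Ctnnb1, Ctnna1 and Ctnnd1, which bind cadherin tails, did not pass, and Ctnnb1 had 1859.8 and 1859 CPM in the Chrna4 libraries, against 1843 and 1892 CPM in the controls. Of 10 tested desmosome and hemidesmosome partners 1 rose and 1 fell (median log2 0.01). The hemidesmosomal integrin gene Itgb4 fell to 17.4 ± 0.875 CPM in Chrna4 cells, against 30.7 ± 6.18 CPM in control cells (SD, n = 2 each), with an adjusted p of 0.00115 by limma, and Dst, encoding dystonin, rose to 614 ± 27.1 CPM in Chrna4 cells, against 482 ± 61.8 CPM in control cells (SD, n = 2 each), a call lost without Chrna4 2 (adjusted p = 0.0976 by limma). Of 4 tested atypical cadherin genes Fat2 rose to 9.84 ± 0.586 CPM in Chrna4 cells, against 5.92 ± 1.51 CPM in control cells (SD, n = 2 each), a call lost without Chrna4 2 (adjusted p = 0.0574 by limma), while Fat1 had 346 and 361 CPM in the Chrna4 libraries, against 309 and 359 CPM in the controls. The 1 tested gene of the other gap channel list, Panx1, had 6.40 and 4.65 CPM in the Chrna4 libraries, against 6.13 and 5.38 CPM in the controls.

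Among 14 tested transcription factors known to act on junction genes 3 rose and 1 fell (median log2 0.07). Snai2, a repressor of Cdh1 in many epithelia, rose to 63.0 ± 0.325 CPM in Chrna4 cells, against 36.9 ± 4.19 CPM in control cells (SD, n = 2 each), with an adjusted p of 7.15e-05 by limma, and Klf4 rose to 38.2 ± 0.288 CPM in Chrna4 cells, against 24.9 ± 0.0145 CPM in control cells (SD, n = 2 each), with an adjusted p of 0.000335 by limma. Zeb1, another Cdh1 repressor, rose to 73.1 ± 1.35 CPM in Chrna4 cells, against 61.1 ± 3.67 CPM in control cells (SD, n = 2 each), a call lost without Chrna4 1 or Chrna4 2 and with library totals (adjusted p = 0.215, 0.140 and 0.0689 by limma). Elf3 fell by 0.48 on the log2 scale (SE 0.12), a call lost without Chrna4 1 or Chrna4 2 (adjusted p = 0.112 and 0.0622 by limma). Cdh1 itself did not pass, as given above. Each of these lists is read against the background of 9.26% higher and 6.66% lower.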

How the data were processed

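RNA from 4 AML12 libraries, 2 per plasmid, was sequenced on an Illumina instrument in paired reads of 150 bases, per the labels' protocols. TopHat2, HTSeq and mm10/GRCm38 are named in the submitters' processing notes, without versions, while whether counting used strand is not stated there. The authors deposited 1 table with a CPM signal per gene and library, relative to a scaled library size, and their own log2 fold change, log2 mean CPM, p-value and adjusted p-value, per the file headers. Its fold change runs control over Chrna4 and was turned round. All values of each column (100%) were whole multiples of 1 step within 0.01 reads, so whole reads were recovered. On these reads edgeR's quasi-likelihood test called 1811 of 11298 genes and the main test 1798. TMM factors from these reads equalled the deposited scaling within a relative 1e-09.

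Differences were tested by limma-trend (limma 3.58.1, R 4.3.3) on log2(CPM + 1) over genes averaging 1 CPM or more, adjusted after Benjamini and Hochberg, with 2 residual and 9.55 prior degrees of freedom. Alternatives included edgeR 4.0.16, DESeq2 1.42.0 and limma-voom on recovered reads. The members and lists were chosen with earlier results of these data known. Named genes are Chrna4, every called member, the leading uncalled members of each class, and up to 4 called genes per list. Other members are given by values, chosen after these were seen. All 65 identifiers were found in GENCODE M21 (98.9% of the table), which supplied coordinates and exon lengths. The values of 3 tested members, none of them called, are not reported here, while counts over the members include them. Exact intervals cover counting error only. Those printed exclude equal levels and were chosen after the values were seen, while some not printed include it, such as Cldn1 (0.779 to 17.9). The authors' deposited table did not call Ocln, Cdh16 or Gjb2 (adjusted p = 0.183, 0.0775 and 0.118 in that table).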

Additional observations from a re-analysis of the deposited data

How the results depend on the processing

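The 8 called genes kept their direction in all 12 alternatives (leaving out each library, edgeR, DESeq2 and limma-voom on recovered reads, scaling by RLE factors or by library totals, a pseudocount of 0.1, and a filter at 5 CPM or none), and 89 of their 96 values stayed past the threshold. Pcdh7, Pcdh17, Cdh17, Jup and Gjb1 passed in each. The number of higher members was 3 to 13 and of lower members 2 to 5 with 1 library left out. Such a fit leaves 1 group with a lone library, assumed to vary like the other group. With library totals, which shift the median of all genes to -0.05, 4 members were higher and 4 lower, and 40.8% of all calls were higher in Chrna4 cells, against 58.2% with the deposited scaling. At an adjusted p under 0.01, 4 were higher and 3 lower. With members taken by their GENCODE symbols, an alternative chosen after seeing the data that adds the 4 nectin genes and 2 Cldn34 genes and drops Cldn25, 5 were higher and 3 lower of 42 tested. No paired analysis was possible because the groups share only replicate number 1.

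Signs changed in 25 of 330 values of the 28 reported members that were not called. With 1 library left out, the log2 change ran from -0.024 to 0.14 for Cdh1, -0.0077 to 0.36 for Cdh6, -0.086 to 0.024 for Cdh2, -0.11 to 0.0099 for Cdh13, -0.36 to 0.038 for Cdh24, -0.10 to 0.0087 for Dsg2, -0.12 to 0.065 for Pkp2, -0.090 to 0.089 for Pard6b, -0.21 to 0.069 for Crb3, -0.11 to 0.25 for Pard6a, -0.34 to 0.0019 for Pard6g, -0.0040 to 0.12 for Pcdhgb6, -0.29 to 0.18 for Pcdhb17, -0.014 to 0.18 for Tjp1, -0.098 to 0.093 for Cgn, -0.26 to 0.12 for Cldn18 and -0.13 to 0.068 for Pvrl1. Pard6b stood at 0.0009 with RLE factors, 0.0009 with edgeR and 0.0014 with DESeq2. The cause of these changes was not tested. Depth limits the 26 genes under the filter, which had 12 to 116 reads in all.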
